A study of Danio rerio with 12 samples.

Results

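The 73 genes described here encode RNA polymerase II and the machinery that places it at promoters. They were taken from the 37541 gene identifiers of the files as every gene whose symbol, ignoring case, begins with POLR2 and a letter from A to M, with TAF or MED and a number, or with GTF2 and the letter A, B, E or F, together with TBP. Subunits of TFIIH (GTF2H) were left out. Of the 73 genes, 61 reached 0.5 FPKM in at least 3 libraries and were tested with 23648 genes in all. FPKM is fragments per kilobase of gene, scaled to a size set for each library, and so a level per length. RNA was sequenced from whole zebrafish larvae of strain AB at 7 and at 5 days post fertilization (dpf). The mutants were homozygous (ercc2/xpd -/-) for a small CRISPR/Cas9 deletion in one of the last exons, and the siblings were ercc2/xpd+/+ & ercc2/xpd+/- together, so that sibling libraries mix wild-type and heterozygous larvae. Each of the 4 groups had 3 libraries, and each library was a pool of larvae. The p-values therefore measure the spread between pools.

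RNA polymerase II transcribes protein-coding genes. At a promoter TFIID, made of the TATA-binding protein TBP and its associated factors (TAFs), binds first with TFIIA and TFIIB. TFIIF brings the polymerase, and TFIIE recruits TFIIH, which opens the DNA. Mediator, a large complex with head, middle, tail and kinase modules, carries signals from bound activators to the polymerase. *ercc2/xpd* encodes a helicase of TFIIH, whose helicase activity the paper ties to the opening of DNA around lesions in nucleotide excision repair. The gene itself is listed as ERCC2 (ENSDARG00000021985). It had 3.57, 2.96 and 3.07 FPKM in the mutant libraries and 6.38, 4.26 and 5.06 FPKM in the sibling libraries at 7 dpf, and 3.14, 2.97 and 2.56 FPKM against 5.23, 3.78 and 3.80 FPKM at 5 dpf. Its mutant libraries all lay below its sibling libraries at each age, with log2 changes of −0.62 (SE 0.17, adjusted p = 0.0612, limma) at 7 dpf and −0.48 (SE 0.17, adjusted p = 0.201, limma) at 5 dpf that did not pass the test. The paper, by semi-quantitative RT-PCR at 5 dpf, found its transcript similar in mutants and siblings, and the protein reduced.

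Library depth, as recovered from the values, ran from 13403615 to 15084280 reads. The 73 genes took 0.153% to 0.169% of the reads in mutants against 0.104% to 0.109% in siblings at 7 dpf, and 0.171% to 0.179% against 0.116% to 0.145% at 5 dpf. The typical tested gene also took a larger share in mutants. With each library scaled to its total of recovered reads, all tested genes had a median log2 change of 0.16 at 7 dpf. At 5 dpf that median, again of mutants over siblings, was 0.12. On that scale the median of the tested genes among the 73 was 0.40 at 7 dpf and 0.20 at 5 dpf. A large part of the gap in the reads of the 73 genes lay in 1 gene, *POLR2A*. At 7 dpf it held 5126 to 6461 of 22194 to 25074 such reads in mutants and 2068 to 2154 of 14555 to 15475 in siblings. At 5 dpf it held 5235 to 5675 of 24477 to 26783 in mutants and 2223 to 2511 of 17217 to 21193 in siblings. Organ markers moved with genotype. The summed level of 7 exocrine pancreas markers was 188 to 1333 FPKM in mutants and 13482 to 16570 FPKM in siblings at 7 dpf, and 107 to 446 FPKM against 4372 to 7752 FPKM at 5 dpf. In the same order, 11 intestine markers summed to 63.5 to 127 against 632 to 795 and 161 to 221 against 702 to 788 FPKM, 8 liver markers to 346 to 527 against 2550 to 3059 and 1545 to 2557 against 2903 to 6027 FPKM, and 7 lens markers to 34.2 to 189 against 407 to 901 and 33.7 to 94.4 against 579 to 945 FPKM. All 7 pancreas markers were called lower in mutants at both ages. Muscle markers (7) overlapped between the groups at both ages, with 17514 to 27204 FPKM in mutants and 19442 to 23839 FPKM in siblings at 7 dpf and 18561 to 21641 FPKM against 16909 to 27191 FPKM at 5 dpf. Of the 5 erythroid markers matched, 1 was at 0 in each group but the siblings at 5 dpf, and their sums were 86.3 to 104 FPKM in mutants against 99.5 to 157 FPKM in siblings at 7 dpf and 226 to 379 FPKM against 263 to 559 FPKM at 5 dpf. The part of these tissues in the results on the transcription machinery was not tested, and in whole larvae fewer cells of a type and less RNA per cell cannot be told apart.

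At 7 dpf 5 of the 61 tested genes were called higher in mutants than in siblings and none lower: *POLR2A*, *POLR2B* and *POLR2G*, which encode subunits of the polymerase, *TBP*, and the Mediator gene *MED18*. Among all tested genes 1.80% were called higher and 3.25% lower in this comparison. At 5 dpf *POLR2A* and the TFIID gene *TAF10* were called higher in mutants and none lower, where 0.655% of all genes were called higher and 2.16% lower. At an unadjusted p under 0.05, limma gave 21 of the 61 genes higher (against 9.92% of all genes) and 2 lower (9.66%) at 7 dpf, and 9 higher (6.98%) and 0 lower (7.53%) at 5 dpf. With voom weights on recovered reads it called 4 higher (1.36%) and 0 lower (3.20%) at 7 dpf and 3 higher (0.689%) and 0 lower (2.29%) at 5 dpf. With the values rescaled to TPM (each library brought to the same sum), it called 15 higher (5.72%) and 0 lower (2.11%) at 7 dpf and 7 higher (1.25%) and 0 lower (1.39%) at 5 dpf, so that under TPM the calls over all genes also shifted towards higher in mutants.

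The median log2 change of the 61 genes was 0.24 at 7 dpf, against 0.01 over all tested genes, and 47 of them (77.0%, against 51.6% of all genes) lay above 0. At 5 dpf it was 0.08 against 0.02, with 41 genes (67.2%, against 52.6%) above 0, and without mutant replicate 1 of 5 dpf it was 0.012 against 0.0079. Set against the mean of the siblings at the same age, the median of the 61 genes was, library by library, 0.22, 0.19 and 0.34 in mutant libraries and 0.04, −0.01 and −0.02 in sibling libraries at 7 dpf, and 0.18, 0.05 and 0.07 against 0.07, 0.02 and −0.04 at 5 dpf. The groups lay apart at 7 dpf and overlapped at 5 dpf. Each sibling library is part of the mean it is set against, which draws sibling values towards 0. Over all tested genes the library medians ran from −0.02 to 0.03. The scaling of the libraries bears on these levels. Under TPM the median over all genes itself moved to 0.19 at 7 dpf and 0.18 at 5 dpf, and the 61 genes lay 0.24 and 0.09 above it, against 0.22 and 0.07 in the deposited scaling.

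For 26 of the 61 genes (42.6%) all 3 mutant libraries lay above all 3 sibling libraries at 7 dpf, against 12.6% of all tested genes, and for 3 (*MED30*, *TAF9* and *TAF1B*) all lay below, against 12.9%. At 5 dpf the numbers were 10 above (16.4%, against 9.31%) and 1 below (*TAF6*, against 10.3%). Mutant libraries lay above at both ages for 7 genes (11.5%, against 2.44%): *POLR2A*, *POLR2B*, *POLR2D*, *POLR2E* on chromosome 22, *POLR2K*, *TBP* and *TAF10*. Of these 7, 5 encode polymerase subunits. The 61 tested genes held 7 listed as subunits of RNA polymerase II alone and 4 listed as shared with polymerases I and III. *POLR2B*, *POLR2E* and *TBP* overlap genes on the opposite strand, as given below. In all, 19 of the 61 tested genes overlap another gene model of the files. The most abundant gene so overlapped is *rpl7a*, at 2209 FPKM on the opposite strand from *MED22*.

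**Figure D1:**
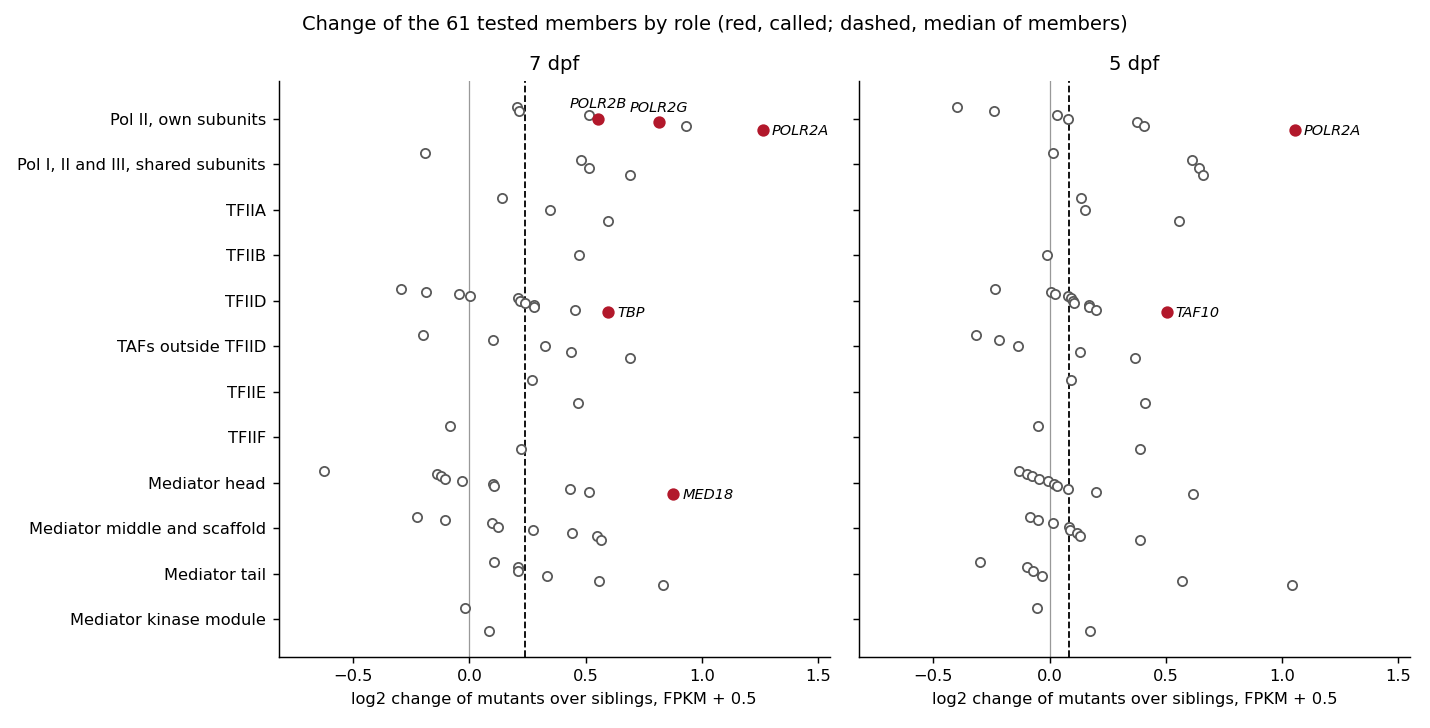
Log2 change of mutants over siblings at 7 dpf (left) and 5 dpf (right) for each of the 61 tested genes, on FPKM + 0.5, by role. Red points passed the test and dashed lines mark the median of the 61 genes, 0.24 at 7 dpf and 0.08 at 5 dpf; *POLR2A* lies farthest to the right in both panels.

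*POLR2A* encodes the largest subunit of RNA polymerase II, which carries the catalytic centre and the C-terminal repeat that TFIIH phosphorylates. The gene lies at chr12:22560067-22573297 on the plus strand, ENSDARG00000099966 (GRCz11). It had 50.2, 47.6 and 45.9 FPKM in mutants and 20.0, 19.5 and 19.7 FPKM in siblings at 7 dpf, and 42.6, 40.2 and 41.3 FPKM in mutants and 19.9, 20.9 and 18.3 FPKM in siblings at 5 dpf. No mutant library came near a sibling library, and replicates lay close together, with means of 47.9 ± 2.13 against 19.7 ± 0.266 FPKM and 41.4 ± 1.19 against 19.7 ± 1.30 FPKM (SD, n = 3 each). The log2 change was 1.26 (SE 0.10, adjusted p = 4.96e-05, limma) at 7 dpf, a 2.40-fold difference, and 1.05 (SE 0.10, adjusted p = 0.000321, limma) at 5 dpf, a 2.08-fold difference. Both calls were made under all 25 alternative settings. No other gene model of the files overlaps *POLR2A*.

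*POLR2B* encodes the second-largest subunit, which closes the cleft with *POLR2A* (it lies at chr14:52377557-52408817 on the minus strand, ENSDARG00000098783). Its level was 12.6, 11.5 and 13.6 FPKM in mutants and 7.97, 9.08 and 8.08 FPKM in siblings at 7 dpf, and 13.4, 11.9 and 11.7 FPKM against 8.97, 9.61 and 8.96 FPKM at 5 dpf. The groups did not overlap at either age. The log2 change was 0.55 (SE 0.12, adjusted p = 0.0176, limma) at 7 dpf and passed the test, and it was 0.40 (SE 0.12, adjusted p = 0.106, limma) at 5 dpf and did not. The call at 7 dpf was lost without mutant replicate 3 (adjusted p = 0.0549), sibling replicate 1 (0.0742) or sibling replicate 3 (0.0722), and also with only the groups compared in the fit (0.0569) or with the replicate number within each age as a block (0.0529). The genes *IGFBP7* and *NOA1* overlap *POLR2B* on the opposite strand, the higher of them at a mean of 32.7 FPKM. Whether reads were counted by strand is not stated in the sources used here.

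The ratio of *POLR2A* to *POLR2B*, on FPKM, was 3.99, 4.16 and 3.38 in mutants and 2.51, 2.14 and 2.43 in siblings at 7 dpf, and 3.17, 3.39 and 3.53 against 2.22, 2.17 and 2.04 at 5 dpf. Mutant ratios lay above sibling ratios throughout, so the difference in *POLR2A* was the larger of the pair. Summed over the other 10 tested subunits, the level was 155 to 201 FPKM in mutants and 109 to 120 FPKM in siblings at 7 dpf, without overlap, and 201 to 260 FPKM against 152 to 192 FPKM at 5 dpf. The ratio and the sum were formed after the values were seen and carry no test.

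*POLR2G* encodes a subunit of the stalk that sits on the outside of the polymerase and touches the emerging RNA (chr14:26715626-26719053 on the plus strand, ENSDARG00000056127). It had 16.1, 19.2 and 25.3 FPKM in mutants and 10.6, 12.1 and 10.5 FPKM in siblings at 7 dpf, and 38.5, 32.4 and 29.3 FPKM against 29.6, 36.2 and 28.8 FPKM at 5 dpf. The groups lay apart at 7 dpf and overlapped at 5 dpf. The log2 change was 0.82 (SE 0.17, adjusted p = 0.0166, limma) at 7 dpf and 0.08 (SE 0.17, adjusted p = 0.882, limma) at 5 dpf. Without sibling replicate 1 or 3 the call at 7 dpf was lost (adjusted p = 0.0649 and 0.067).

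*POLR2D*, its partner in the stalk, had the highest mean level of the polymerase subunits, 50.0 FPKM. Its libraries gave 45.4, 44.9 and 56.7 FPKM in mutants and 35.4, 34.5 and 31.9 FPKM in siblings at 7 dpf, and 77.7, 59.8 and 61.5 FPKM against 53.3, 53.5 and 45.8 FPKM at 5 dpf, without overlap at either age. Its log2 changes were 0.52 (adjusted p = 0.06, limma) at 7 dpf and 0.37 (0.237) at 5 dpf, and neither passed the test. The remaining subunits that belong to RNA polymerase II alone also missed it. *POLR2J3*, listed for a small subunit that pairs with *POLR2C* in the assembly of the enzyme, had 18.2 ± 2.01 FPKM in mutants against 15.6 ± 0.337 FPKM in siblings at 7 dpf and 24.3 ± 3.60 against 23.9 ± 4.71 FPKM at 5 dpf (SD, n = 3 each). *POLR2I*, for a small subunit that helps proofreading, scattered within groups, at 3.62, 1.68 and 4.53 FPKM in mutants and 3.64, 0.501 and 1.07 FPKM in siblings at 7 dpf and 1.20, 1.38 and 1.16 FPKM against 1.37, 5.56 and 0.574 FPKM at 5 dpf. Its log2 changes were 0.93 (SE 0.60, adjusted p = 0.432, limma) at 7 dpf and −0.40 at 5 dpf. *polr2m*, whose human product binds the polymerase and holds it inactive, was near the filter with a mean of 0.495 FPKM and log2 changes of 0.21 and −0.24.

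**Figure D2:**
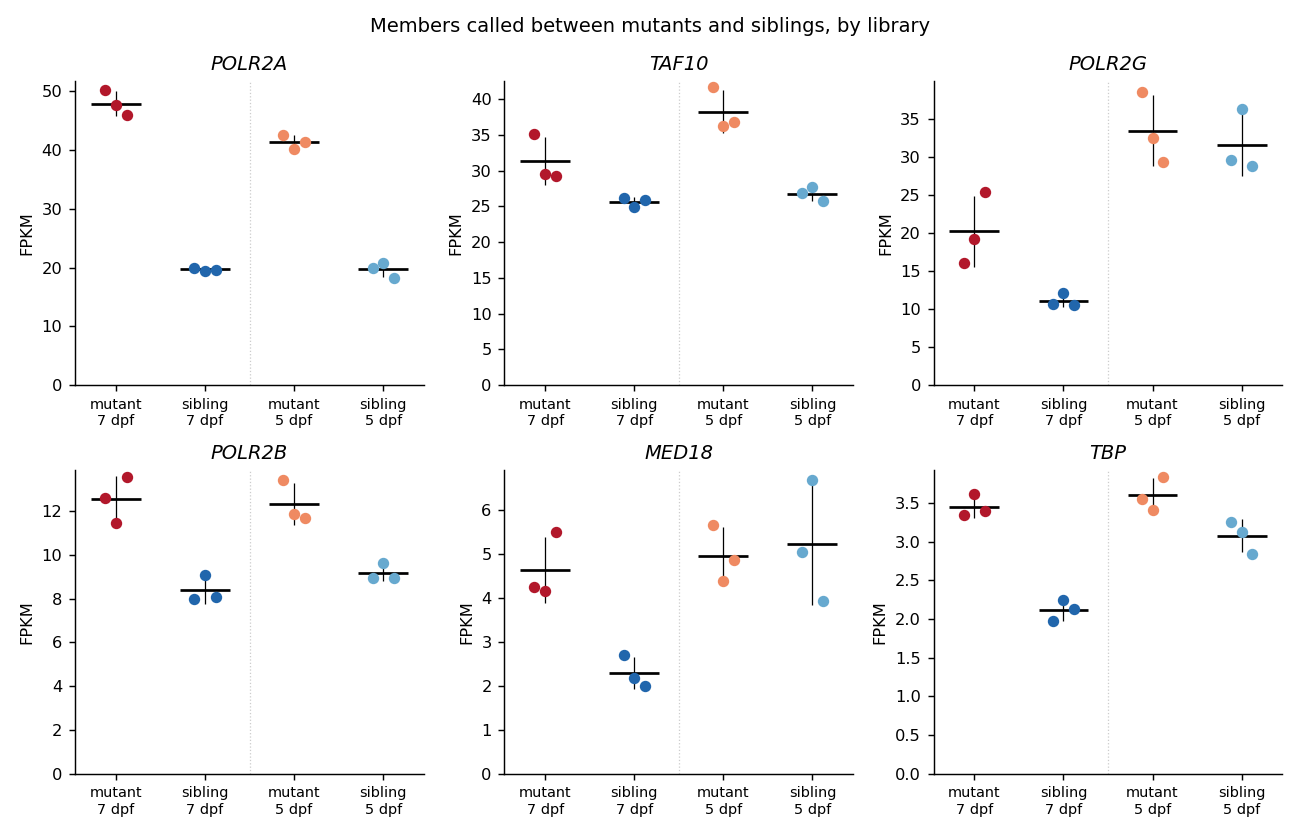
FPKM of the 6 genes called between mutants and siblings at 7 or 5 dpf, by library; points are libraries, bars the mean and lines 1 SD (n = 3 each). *POLR2A* stands at 45.9 to 50.2 FPKM in mutants against 19.5 to 20.0 FPKM in siblings at 7 dpf, and *MED18* and *POLR2G* are set apart at 7 dpf only.

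Of the subunits that RNA polymerase II shares with polymerases I and III, 4 were tested and none passed at either age, with a log2 change above 0 for 3 at 7 dpf and for 4 at 5 dpf. *POLR2E* on chromosome 22 had 39.1, 39.5 and 52.9 FPKM in mutants and 31.5, 30.1 and 29.2 FPKM in siblings at 7 dpf, and 64.7, 55.0 and 48.5 FPKM against 38.9, 38.9 and 28.5 FPKM at 5 dpf. *POLR2K* had 18.5, 18.6 and 24.6 FPKM in mutants and 12.8, 14.0 and 10.7 FPKM in siblings at 7 dpf, and 30.2, 17.2 and 22.2 FPKM against 15.4, 12.8 and 14.9 FPKM at 5 dpf. For both genes the groups did not overlap at either age. The log2 changes of *POLR2E* were 0.51 (SE 0.17, adjusted p = 0.107, limma) at 7 dpf and 0.66 (SE 0.17, adjusted p = 0.0606, limma) at 5 dpf, and those of *POLR2K* 0.69 (adjusted p = 0.0675) and 0.64 (0.126). *POLR2H* averaged 1.16 ± 0.166 FPKM in mutants and 0.688 ± 0.0978 FPKM in siblings at 7 dpf (SD, n = 3 each), with a log2 change of 0.48 (adjusted p = 0.264), and 0.01 at 5 dpf. *POLR2L* scattered, with log2 changes of −0.19 and 0.61. Under TPM *POLR2E* and *POLR2K* were both called at 7 dpf (adjusted p = 0.00706 and 0.0162) and at 5 dpf (0.00598 and 0.0442). That scaling also called more of all genes higher, 5.72% at 7 dpf and 1.25% at 5 dpf, against 1.80% and 0.655% in the deposited scaling. No other alternative called *POLR2K* at 5 dpf, and at 7 dpf *POLR2E* was otherwise called only with the total of recovered reads. *POLR2E* overlaps *gpx4a*, a gene of 227 FPKM on the opposite strand, and the sources used here do not state whether reads were counted by strand.

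*TBP* encodes the protein that bends TATA-box DNA and that all 3 nuclear RNA polymerases use (chr13:24381344-24396199 on the minus strand, ENSDARG00000014994). It had 3.35, 3.61 and 3.39 FPKM in mutants and 1.97, 2.25 and 2.12 FPKM in siblings at 7 dpf, and 3.55, 3.41 and 3.84 FPKM against 3.26, 3.12 and 2.84 FPKM at 5 dpf, with no overlap at either age. The log2 change was 0.60 (SE 0.12, adjusted p = 0.014, limma) at 7 dpf and passed the test, and it was 0.20 (SE 0.12, adjusted p = 0.504, limma) at 5 dpf and did not. The call at 7 dpf was lost without mutant replicate 2 (adjusted p = 0.0617) or sibling replicate 1 (0.0612), and with only the groups compared in the fit (0.0551). *PDCD2*, a gene of 1.15 FPKM, overlaps *TBP* on the opposite strand.

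*TAF10*, a histone-fold subunit that TFIID shares with the SAGA coactivator, was the most abundant TFIID gene, at a mean of 30.5 FPKM (chr8:25811892-25817106 on the minus strand, ENSDARG00000068641). Its libraries gave 35.2, 29.5 and 29.2 FPKM in mutants and 26.2, 24.9 and 25.9 FPKM in siblings at 7 dpf, and 41.7, 36.2 and 36.8 FPKM against 26.9, 27.7 and 25.8 FPKM at 5 dpf. Mutant libraries lay above sibling libraries at both ages. The log2 change was 0.50 (SE 0.12, adjusted p = 0.0376, limma) at 5 dpf, which passed the test, and 0.28 (SE 0.12, adjusted p = 0.207, limma) at 7 dpf. The call at 5 dpf was close to the limit: it was made in 12 of 25 alternatives, whose adjusted p ran from 0.0264 to 0.171, and with the replicate number within each age as a block it was lost (adjusted p = 0.0788), which left *POLR2A* as the 1 gene called at 5 dpf. The call of *TAF10* was also lost without any 1 of the 6 libraries of 5 dpf (0.0712 to 0.171) and without mutant replicate 2 (0.0527) or any sibling library of 7 dpf (0.058 to 0.0661). With only the groups compared in the fit it was lost too (0.106).

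None of the other 9 tested TFIID genes was called between mutants and siblings. *TAF5*, a scaffold subunit with WD repeats, had 3.72, 4.69 and 4.18 FPKM in mutants and 3.06, 3.11 and 2.59 FPKM in siblings at 7 dpf, without overlap. Its log2 change was 0.46 (adjusted p = 0.103, limma), and *atp5md*, a gene of 81.6 FPKM, overlaps it on the opposite strand. *TAF9*, a histone-fold partner of *TAF6*, lay below its siblings at 7 dpf, at 22.8, 18.8 and 17.2 FPKM in mutants against 24.1, 23.0 and 24.8 FPKM (−0.30, adjusted p = 0.22). *TAF6* had log2 changes of −0.19 at 7 dpf and −0.23 at 5 dpf. The other 6 (*TAF7*, *TAF3*, *TAF1L*, *TAF2*, *TAF11L11* and *taf4a*) lay between −0.04 and 0.28 at 7 dpf and between 0.02 and 0.17 at 5 dpf. The gene listed as *TAF1L* had 7.71 ± 0.704 FPKM in mutants and 6.59 ± 0.322 FPKM in siblings at 7 dpf (SD, n = 3 each).

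The rule also took in 5 genes with TAF names that work elsewhere. *taf15* encodes an RNA-binding protein of the FET family that can associate with TFIID. It had 19.8, 30.8 and 29.7 FPKM in mutants and 19.6, 16.2 and 13.1 FPKM in siblings at 7 dpf, where the groups lay apart, and 38.0, 30.5 and 30.0 FPKM against 48.3, 41.0 and 34.5 FPKM at 5 dpf, where they overlapped. Its log2 changes of 0.69 (SE 0.20, adjusted p = 0.0752, limma) at 7 dpf and −0.32 (SE 0.20, adjusted p = 0.518, limma) at 5 dpf missed the threshold. *TAF1A* and *TAF1B*, of the selectivity factor that brings RNA polymerase I to ribosomal DNA, had log2 changes of 0.43 and −0.20 at 7 dpf and 0.37 and 0.13 at 5 dpf. *TAF5L* and *TAF6L*, which take the places of *TAF5* and *TAF6* in SAGA, had 0.10 and 0.32 at 7 dpf and −0.22 and −0.13 at 5 dpf.

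No gene of TFIIA, TFIIB, TFIIE or TFIIF was called between mutants and siblings among the 8 tested. *GTF2B* encodes TFIIB, the single protein that bridges TBP and the polymerase. It had 19.7, 18.9 and 19.0 FPKM in mutants and 14.2, 13.7 and 13.2 FPKM in siblings at 7 dpf, without overlap, and 20.1, 18.3 and 14.5 FPKM against 16.4, 21.0 and 15.9 FPKM at 5 dpf, with overlap. Its log2 change was 0.47 (SE 0.15, adjusted p = 0.0878, limma) at 7 dpf and −0.01 at 5 dpf. *GTF2E1*, the large subunit of TFIIE, averaged 0.883 ± 0.254 FPKM in mutants and 0.488 ± 0.0278 FPKM in siblings at 7 dpf, with a log2 change of 0.47 (adjusted p = 0.21), and its partner *GTF2E2* had 0.27. *GTF2A1*, the precursor of the large TFIIA chains, was the most abundant TFIIA gene, with 14.9 ± 2.09 FPKM in mutants and 13.5 ± 1.58 FPKM in siblings at 7 dpf and a log2 change of 0.14 (SD, n = 3 each). *GTF2A2* had 0.35 at 7 dpf. The low *GTF2A1L* had 0.282, 1.23 and 1.35 FPKM in mutants and 0.434, 0.244 and 0.543 FPKM in siblings at 7 dpf, with overlap and a log2 change of 0.60. For TFIIF, *GTF2F2* on chromosome 1 had −0.08 and −0.05, and *GTF2F1* 0.22 and 0.39, at 7 and 5 dpf.

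Of 26 tested Mediator genes, *MED18* in the head was called. Its product forms a movable jaw of the head with that of *MED20* (chr16:7376471-7379328 on the minus strand, ENSDARG00000041237). *MED18* had 4.24, 4.16 and 5.50 FPKM in mutants and 2.71, 2.18 and 1.99 FPKM in siblings at 7 dpf, and 5.65, 4.37 and 4.85 FPKM against 5.04, 6.67 and 3.93 FPKM at 5 dpf. The groups lay apart at 7 dpf and overlapped at 5 dpf, and the log2 change was 0.88 (SE 0.19, adjusted p = 0.02, limma) at 7 dpf and −0.05 (SE 0.19, adjusted p = 0.947, limma) at 5 dpf. The call was lost with voom weights on recovered reads (adjusted p = 0.0625) and without mutant replicate 3 (0.068), sibling replicate 2 (0.0741) or sibling replicate 3 (0.0824) of 7 dpf. *MED20* had 1.35, 1.87 and 2.62 FPKM in mutants and 1.53, 1.105 and 1.22 FPKM in siblings at 7 dpf, with overlap and a log2 change of 0.43 (adjusted p = 0.222).

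*MED30*, a head subunit of animal Mediator, lay lower in mutants at 7 dpf. It had 26.5, 25.9 and 33.8 FPKM in mutants and 45.6, 43.8 and 43.3 FPKM in siblings at 7 dpf, and 14.3, 13.9 and 15.4 FPKM against 18.0, 9.02 and 19.1 FPKM at 5 dpf. Its mutant libraries lay below its sibling libraries at 7 dpf, and its log2 change of −0.62 (SE 0.23, adjusted p = 0.148, limma) did not pass the test in all libraries, although it did without sibling replicate 2 of 5 dpf (adjusted p = 0.0126). That library had 9.02 FPKM, the lowest of the 12. The remaining head genes (*MED17*, *MED6*, *MED11*, *MED22*, *MED8* and *MED19* on chromosomes 1 and 14) had log2 changes of −0.14 to 0.51 at 7 dpf and −0.13 to 0.62 at 5 dpf. In the middle module and its scaffold, *MED10* was the most abundant gene at a mean of 27.0 FPKM and had a log2 change of −0.11 at 7 dpf. *MED31*, *MED9* and *MED7* had 0.55 (adjusted p = 0.0848), 0.57 (0.175) and 0.44 (0.245), and *MED21*, *MED1*, *MED4* and the backbone gene *MED14* lay between −0.23 and 0.27.

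The tail of Mediator, which activators bind, had 6 tested genes and none called. Their log2 change was above 0 for 6 at 7 dpf, with a median of 0.27, and for 2 at 5 dpf, with a median of −0.05. *MED16* was low, at 1.11, 0.655 and 0.746 FPKM in mutants and 0.145, 0.416 and 0.198 FPKM in siblings at 7 dpf, with a log2 change of 0.83 (SE 0.37, adjusted p = 0.237, limma), and −0.30 at 5 dpf. *med29* had 2.92, 1.76 and 2.50 FPKM in mutants and 0.529, 1.34 and 0.897 FPKM in siblings at 5 dpf, where the groups lay apart, with 1.04 (SE 0.29, adjusted p = 0.0877, limma), and 0.56 at 7 dpf. *med15*, the most abundant tail gene, had 0.11 and 0.57 at 7 and 5 dpf. *MED27*, *MED24* and *MED23* had 0.33, 0.21 and 0.21 at 7 dpf and −0.07, −0.10 and −0.03 at 5 dpf. The kinase module, which can hold the polymerase off the complex, was represented by both copies of *MED13*, with −0.02 for the copy on chromosome 15 and 0.09 for that on chromosome 10.

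**Figure D3:**
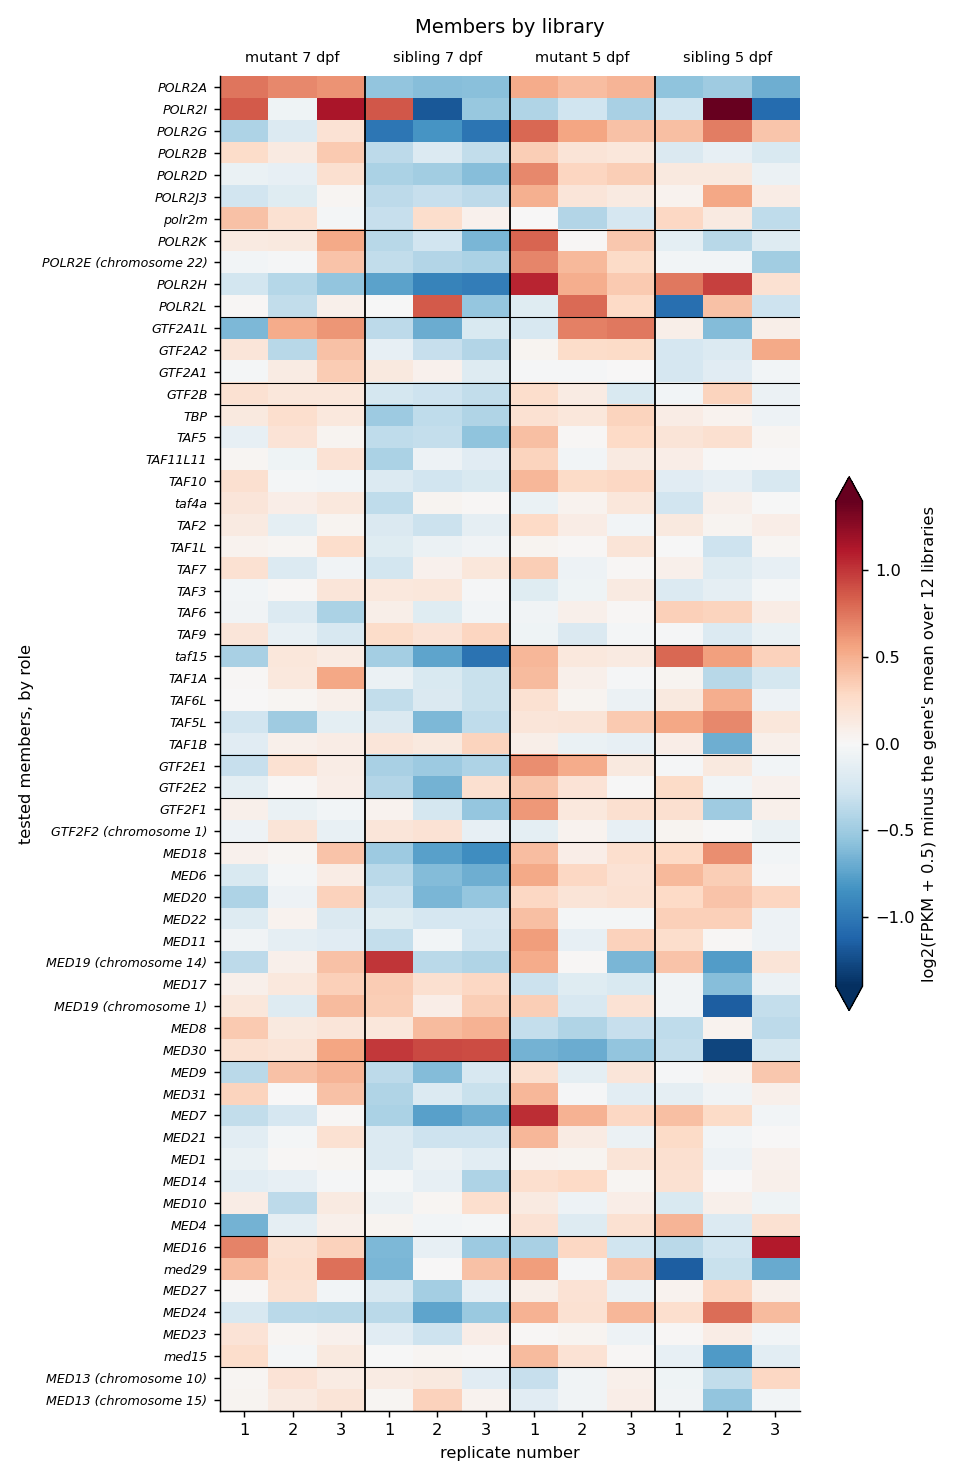
Level of the 61 tested genes in each of the 12 libraries as log2(FPKM + 0.5) minus the mean of the gene over all libraries, by role, with mutants left of siblings at 7 and then 5 dpf; colours saturate at the ends of the scale. The sibling libraries of 7 dpf hold low values for most polymerase subunits and for *MED18*, *MED6* and *MED20*, and high values for *MED30*, whereas *POLR2I* scatters within groups.

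The difference of the mutant effect between 7 and 5 dpf was tested directly, and no gene of the 61 and none of all 23648 (0.00%) was called by limma. The median difference of the 61 genes was 0.13, against −0.01 over all genes. At an unadjusted p under 0.05 there were 5 genes with a larger effect at 7 dpf (8.20%, against 5.28% of all genes) and 0 with a smaller one (against 5.10%), and limma with voom weights called 0. The 5 were *taf15* (difference 1.01, SE 0.29, adjusted p = 0.268), *MED18* (0.92), *POLR2G* (0.73), *GTF2B* (0.48) and *TBP* (0.40). For *POLR2A* the difference was 0.21 (SE 0.15, adjusted p = 0.662). The calls made at 7 dpf and missed at 5 dpf are therefore not shown to differ between the ages.

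From 5 to 7 dpf 4 of the 61 genes fell in mutants (6.56%, against 6.06% of all tested genes) and 2 rose (3.28%, against 5.36%). In siblings 14 fell (23.0%, against 13.0%) and 4 rose (6.56%, against 12.3%). The median log2 change of 7 over 5 dpf was −0.09 in mutants and −0.25 in siblings, against 0.00 and 0.01 over all genes. Under TPM 6 fell (against 6.17% of all genes) and 1 rose (4.14%) in mutants, and 14 fell (12.7%) and 2 rose (8.52%) in siblings. Without mutant replicate 1 of 5 dpf the median in mutants was 0.00, and 0 of the 61 genes were then called in either direction in mutants. Calls over all genes in mutants also fell then, from 2700 of 23648 to 1396 of 23485. The age comparison in siblings and the comparison of mutants with siblings at 7 dpf share the 3 sibling libraries of 7 dpf, so the values below stand beside those above and add no independent evidence to them.

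*POLR2H*, *POLR2G* and *taf15* had the largest falls in siblings. *POLR2H*, a shared subunit, had 1.33, 1.16 and 0.994 FPKM at 7 dpf and 4.09, 2.61 and 2.32 FPKM at 5 dpf in mutants, without overlap, a log2 change of −1.05 (SE 0.22, adjusted p = 0.0114, limma) that was lost without mutant replicate 1 of 5 dpf (0.0515). In siblings it had 0.800, 0.646 and 0.619 FPKM at 7 dpf and 3.14, 3.75 and 2.03 FPKM at 5 dpf, again without overlap, a log2 change of −1.52 (SE 0.22, adjusted p = 0.000556, limma). *POLR2G*, given by library above, fell by 0.73 on the log2 scale in mutants (adjusted p = 0.0185) and by 1.46 in siblings (0.000138). Its call in mutants was lost without replicate 1 or 2 of the mutants at 7 dpf (0.0645 and 0.0544) or at 5 dpf (0.0809 and 0.0563), and with only the groups compared in the fit (0.0545). For *taf15* the change was −0.31 (adjusted p = 0.373) in mutants and −1.32 (SE 0.20, adjusted p = 0.000712, limma) in siblings. The difference between the genotypes in the change with age is the same quantity as the difference of the mutant effect given above, and it was not called for any of these genes.

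*MED24*, a tail subunit, and *MED7*, which spans the middle module, fell in both groups. *MED24* had log2 changes of −0.72 in mutants (adjusted p = 0.0165) and −1.03 in siblings (0.000951), and its call in mutants was lost without mutant replicate 1 or 3 of 5 dpf (0.0664 and 0.0505). *MED7* had −0.79 in mutants (0.0236) and −0.84 in siblings (0.00864), and its call in mutants was lost without replicate 1 or 2 of the mutants at 7 dpf (0.0764 and 0.0654) or at 5 dpf (0.0898 and 0.0544). That call was also lost with only the groups compared in the fit (adjusted p = 0.0557, limma).

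The other 9 genes that fell in siblings had changes between −0.53 (*TAF5L*) and −0.02 (*TAF6L*) in mutants, where none was called. In siblings they were *MED18* (−1.01, adjusted p = 0.00248), *TAF5L* (−0.85), *MED6* (−0.82), *MED20* (−0.81), *POLR2J3* (−0.59), *POLR2D* (−0.57), *TAF5* (−0.56), *TAF6L* (−0.48) and *TBP* (−0.45). Of the 14 genes, 10 kept the call in siblings in all 25 alternatives. The call of *POLR2J3* was lost without sibling replicate 2 of 5 dpf (adjusted p = 0.0576) and that of *TAF5* without sibling replicate 3 of 7 dpf (0.0593). The call of *TBP* was lost without replicate 1 of the siblings at 7 dpf (0.063) or at 5 dpf (0.0582), and with only the groups compared in the fit (adjusted p = 0.0635, limma). *TAF6L* was called in 9 of 25 (adjusted p 0.0107 to 0.152).

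*MED30* and *MED8*, both of the Mediator head, rose with age in both groups. *MED30*, given by library above, had a log2 change of 0.95 (SE 0.23, adjusted p = 0.0194, limma) in mutants, which was lost without mutant replicate 3 of 7 dpf (0.0654) or mutant replicate 1 (0.0637) or 2 (0.0685) of 5 dpf. This call of *MED30* was also lost with TPM (0.0568) and with the total of recovered reads (0.05). In siblings its change was 1.57 (SE 0.23, adjusted p = 0.000489, limma), and at each genotype the libraries of 7 dpf lay above those of 5 dpf. *MED8* had log2 changes of 0.58 in mutants (adjusted p = 0.0279) and 0.59 in siblings (0.0135). Its call in mutants was lost without any 1 of the 6 mutant libraries (0.0501 to 0.0953) and with the block within each age (0.0604), and its call in siblings was lost without sibling replicate 2 (0.0537) or 3 (0.0528) of 7 dpf or 1 of 5 dpf (0.0504). *MED17* and *MED19* on chromosome 1 rose in siblings. *MED17* had 0.53 (0.0222) and lost the call without sibling replicate 1 (0.0707) or 3 (0.0562) of 7 dpf or 2 of 5 dpf (0.0639). It also lost the call with TPM (0.122), the total of recovered reads (0.149) or only the groups compared in the fit (0.0586). *MED19* had 0.77 (0.0494) and was called in 7 of 25 alternatives (adjusted p 0.00775 to 0.174). *POLR2A* had log2 changes with age of 0.21 in mutants (adjusted p = 0.228) and 0.00 in siblings (0.99).

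Markers of dividing cells moved with age as well. The 16 genes of that list summed to 96.8 to 109 FPKM in mutants at 7 dpf and 275 to 356 FPKM in mutants at 5 dpf, and to 80.4 to 90.5 FPKM in siblings at 7 dpf and 372 to 471 FPKM in siblings at 5 dpf. None of the 16 was at 0 throughout a group. Of the 15 tested, 13 fell with age in mutants and all 15 fell in siblings. Between genotypes limma called 0 of them at 7 dpf (unadjusted p under 0.05: 6 higher and 0 lower in mutants; 0 with voom weights), and 5 were lower in mutants at 5 dpf. Their median log2 change at 7 dpf was 0.34, against 0.01 over all tested genes, with 14 of the 15 above 0. At 5 dpf it was −0.64 against 0.02, with 1 above 0. The summed levels did not overlap between genotypes at either age, being higher in mutants at 7 dpf and lower at 5 dpf. The part of these markers in the changes of the transcription machinery, with age or between genotypes, was not tested.

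**Figure D4:**
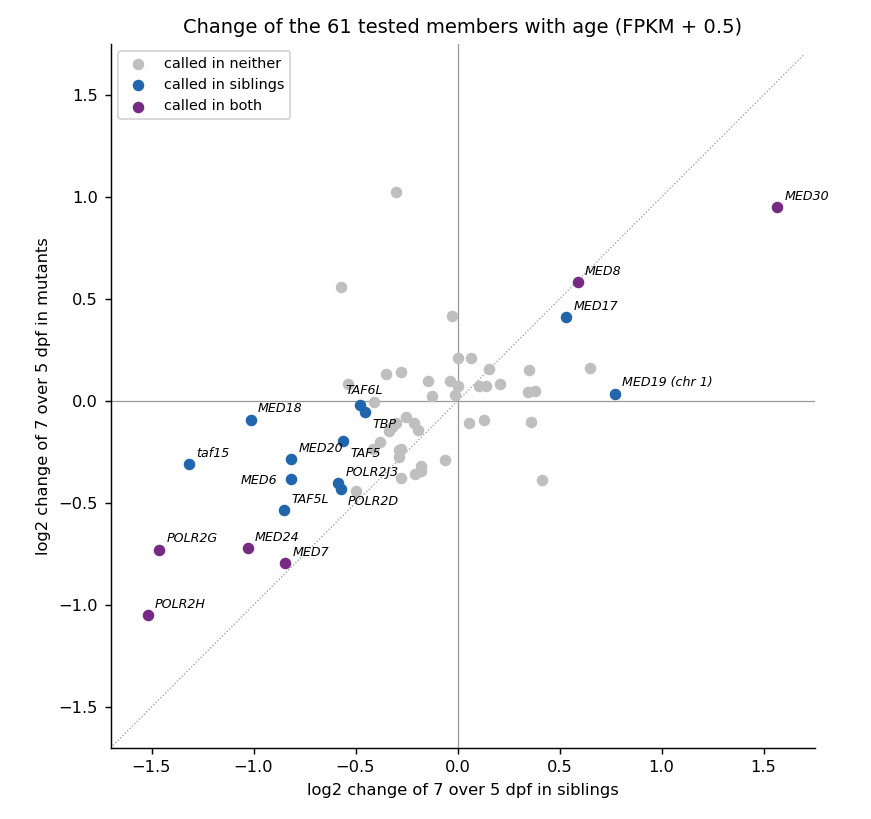
Log2 change of 7 over 5 dpf in mutants (vertical) against siblings (horizontal) for the 61 tested genes, on FPKM + 0.5; blue, called in siblings, purple, called in both, and the dotted line marks equal change. *POLR2G* and *taf15* stand at −0.73 and −0.31 in mutants and at −1.46 and −1.32 in siblings, and *MED30* and *MED8* are the genes called higher in both.

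Of the 73 genes, 12 were under the filter and were not tested. *MED28*, *TAF12*, *TAF13* and *GTF2F2* on chromosome 9 were listed at 0 in all 12 libraries, as were 14.9% of the genes in the files. TFIID and Mediator subunits such as *TAF12*, *TAF13* and *MED28* are used by most cells, and the source of these zeros was not tested. *MED12*, *MED25*, *POLR2F* and *POLR2E* on chromosome 2 had between 0 and 2 recovered reads in any library. *taf4b* and *med1l*, kin of *taf4a* and *MED1*, had at most 6 and 9 reads. *POLR2C*, the partner of the subunit listed as *POLR2J3*, had 10, 9 and 12 reads in mutants and 2, 60 and 6 reads in siblings at 7 dpf, and 7, 7 and 10 reads against 10, 9 and 4 reads at 5 dpf. *TAF8* had 53 reads in mutant replicate 2 of 5 dpf and at most 17 in each other library, so that single libraries set the means of both genes.

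The genes around this machinery were compared in 9 lists of 136 symbols that held 125 genes of the files. Over all tested genes limma called 1.80% higher and 3.25% lower in mutants at 7 dpf, and 0.655% and 2.16% at 5 dpf. At an unadjusted p under 0.05 the shares over all genes were 9.92% higher and 9.66% lower at 7 dpf. They were 6.98% and 7.53% at 5 dpf. TFIIH had 6 tested genes, with a median log2 change of 0.38 at 7 dpf and 0.37 at 5 dpf and 0 called by limma at either age (unadjusted p under 0.05: 3 higher and 1 lower at 7 dpf, 4 higher and 1 lower at 5 dpf; 0 with voom weights). The gene lower in each case was *ERCC2* itself. Of its kinase module, *CDK7* averaged 9.80 ± 1.36 FPKM in mutants and 6.60 ± 1.07 FPKM in siblings at 7 dpf (SD, n = 3 each; log2 change 0.54, adjusted p = 0.0891, limma). *CCNH*, its cyclin, had 0.55 at 7 dpf and 0.66 at 5 dpf. *GTF2H3* and *GTF2H5* were listed at 0 in every library.

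In pausing and elongation factors (32 tested) *SSRP1* (ENSDARG00000016994), of the histone chaperone FACT, was higher in mutants than in siblings at 7 dpf (log2 change 0.68, SE 0.14, adjusted p = 0.0122, limma). Another gene listed as *SSRP1* (ENSDARG00000037397) was not called, with 0.21 (adjusted p = 0.793, limma) at 7 dpf and −0.34 (0.706) at 5 dpf. *TCEA3*, of the TFIIS family that rescues stalled polymerase, was lower in mutants than in siblings at 7 dpf (log2 change −0.99, SE 0.25, adjusted p = 0.0384, limma). At 5 dpf 0 of the 32 were called (unadjusted 4 higher and 2 lower, and 0 with voom weights). In SAGA (13 tested) *ENY2*, which also serves mRNA export, was higher in mutants at 7 dpf (log2 change 0.99, SE 0.19, adjusted p = 0.0109, limma). At that age 2 genes were higher and 2 lower at an unadjusted p under 0.05, and voom weights called 1 higher and 1 lower. At 5 dpf 0 of the 13 were called (unadjusted 1 higher and 0 lower, and 0 with voom weights). In RNA polymerase III and its factors (19 tested) *brf2*, the TFIIB relative used at U6-type promoters, was higher in mutants at both ages, with 0.90 (SE 0.19, adjusted p = 0.0157, limma) at 7 dpf and 1.25 (SE 0.19, adjusted p = 0.00334, limma) at 5 dpf. Limma called 0 genes at either age among the 10 of RNA polymerase I (unadjusted 0), the 15 of Integrator (unadjusted 0), the 11 phosphatases and assembly factors of the polymerase (unadjusted 2 higher and 2 lower at 7 dpf, 2 lower at 5 dpf), the 4 TBP relatives and regulators (1 higher at 7 dpf) and the 3 genes of the Mediator kinase and cyclin (1 lower at 7 dpf), and voom weights gave 0 in each. The medians at 7 dpf were −0.11 for RNA polymerase I and 0.15 for RNA polymerase III, and 0.27 and 0.19 at 5 dpf.

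With age, 1 of the 10 RNA polymerase I genes rose and 0 fell in mutants (unadjusted 3 higher, 1 lower; voom 1 and 0), and 4 rose and 0 fell in siblings (unadjusted 7 higher, 0 lower; voom 4 and 0). *POLR1A*, its largest subunit, had 0.61 in mutants (adjusted p = 0.0137, limma) and 0.81 in siblings (0.0012). Of RNA polymerase III, 0 of 19 were called in mutants (unadjusted 1 higher, 0 lower; voom 0), and 5 rose and 0 fell in siblings (unadjusted 6 and 1; voom 4 and 0). Of the 32 elongation factors, 2 rose and 3 fell in mutants and 5 rose and 9 fell in siblings. Over all tested genes 5.36% rose and 6.06% fell in mutants, and 12.3% rose and 13.0% fell in siblings. *eloa*, the active subunit of Elongin, rose in both groups (1.43 in mutants and 1.56 in siblings).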

How the data were processed

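Whole-larva RNA of 12 libraries, 3 for each genotype and age, was sequenced. The deposited values are FPKM, which the authors obtained by mapping reads to GRCz11 and normalizing the number of mapped reads. The submitters' processing notes name HISAT2 2.0.5, while the sources used here do not name the counter, its use of strand or the annotation release. The FPKM steps gave whole reads (all values within 0.01 of a read, below 10000 reads).

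The 23648 genes that reached 0.5 FPKM in 3 or more libraries were fitted on log2(FPKM + 0.5), with 1 model of the 4 groups, by limma 3.58.1 in R 4.3.3 with 8 residual degrees of freedom and a variance trend. Folds on this scale understate the change of low genes. The p-values were adjusted by Benjamini-Hochberg over all tested genes, called under 0.05. Steps were tested on simulated data.

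The genes, roles and lists were chosen with earlier results of these data known. The genes named were *ercc2*, every gene called between genotypes, in each role the most abundant one and that with the largest change at 7 dpf, the 5 largest called increases and decreases with age, all genes under the filter, and up to 3 called genes of each further list, and others complete the account of each role. Lists were matched by symbol, ignoring case.

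Libraries of the same replicate number and age deviated together from their group means at 5 dpf (correlation across genes, r = 0.272, 0.129 and 0.217) and not at 7 dpf (0.054, 0.087 and −0.023). Between libraries of different replicate numbers at 5 dpf, r ran from −0.188 to −0.027. Deviations from the mean of 3 libraries sum to 0, so these correlations are not independent. No label states a pairing, and it is inferred from these values alone. The main fit held no block, so its calls at 5 dpf do not use the pairing, which enters only in the alternatives with replicate blocks. Alternatives were 2 other pseudocounts, 2 filters, 3 scalings, replicate blocks, library weights, voom on recovered reads, the 2 compared groups alone and each library left out. Leaving out sibling replicate 2 of 5 dpf together with mutant replicate 3 of 7 dpf, whose leading genes took the most reads, was chosen after seeing the data.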

Additional observations from a re-analysis of the deposited data

How the results depend on the processing

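*POLR2A* was called higher in mutants at both ages in all 25 alternatives. The counts of the other genes moved. At 7 dpf the 5 genes higher in mutants became 15 with TPM, 13 with the total of recovered reads, 11 with library weights and 3 with only the groups compared. They became 2 to 8 when 1 library was left out (2 without sibling replicate 1 or 3 of 7 dpf). Calls over all genes moved as well. In either direction they went from 1194 of 23648 to 1856 of 23693 with TPM and 1825 of 23712 with the total of reads. They were 2338 of 23648 with library weights and 933 of 21948 with only the groups compared. Without sibling replicate 1 or 3 of 7 dpf they were 760 of 23460 and 720 of 23432. The 0 genes lower became 1 with library weights and 1 without sibling replicate 2 of 5 dpf and mutant replicate 3 of 7 dpf together, and 0 to 1 with 1 library left out (*MED30* without sibling replicate 2 of 5 dpf). At 5 dpf the 2 genes higher became 7 with TPM, 6 with the total of reads and 1 with only the groups compared. They became 1 to 3 with 1 library left out. Calls over all genes, in either direction, went from 666 to 625 with TPM, 594 with the total of reads and 547 with only the groups compared. They were 315 to 765 with 1 library left out. With age, the 2 genes higher in mutants became 1 with TPM and 1 with the total of reads (0 to 3 leaving out 1 library). The 4 lower in mutants became 7 with library weights, 7 with the total of reads and 2 with only the groups compared (0 to 5). The 4 higher in siblings became 2 with TPM, 2 with the total of reads and 2 with only the groups compared (1 to 5). Over all genes, calls with age in mutants went from 2700 to 2443 with TPM and 2779 with the total of reads. They were 4192 with library weights and 2061 with only the groups compared. In siblings they went from 5991 to 5032 with TPM, 5627 with the total of reads and 5107 with only the groups compared. With a replicate block within each age, 1 gene was called higher at 5 dpf and 1 higher with age in mutants. At 7 dpf 4 were called, without *POLR2B* (adjusted p = 0.0529), and *TAF6L* was not called with age in siblings (0.0538). The block over all 4 groups changed no count. 

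Median log2 changes moved with the scaling and with single libraries. They were 0.43 at 7 dpf and 0.27 at 5 dpf with TPM, and 0.40, 0.20, −0.17 (age, mutants) and −0.35 (age, siblings) with the total of recovered reads. The median in mutants with age ran from −0.12 to 0.00 when 1 library was left out and turned to 0.0011 without mutant replicate 1 of 5 dpf, that in siblings from −0.27 to −0.16, and that between genotypes at 5 dpf from 0.012 (without mutant replicate 1 of 5 dpf) to 0.11. For the difference between ages it ran from 0.085 to 0.21, and was 0.051 with no filter and 0.069 without the 2 libraries left out together. With no filter the median in siblings with age was −0.18. Between mutants and siblings, among genes not called with all libraries and the deposited scaling, 46 values under alternatives passed the test and 126 changed sign without passing it. The other 2697 values did neither. For genes below about 1 FPKM few reads limit the precision.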
